A study of Mus musculus with 11 samples.

Results

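The genes *Arl4d*, *Tob2*, *Hdhd5*, *Dedd2*, *Serpinb6b*, *Ddx5* and *Kifap3* were described in renal CD4+ T cells of 3 mouse genotypes after ischemia-reperfusion injury (IRI). These 7 of the 35814 gene symbols of the count table were selected on their CPM, because every CD4IKK1Δ library lay under every CD4cre library, with a small spread within the groups. The level in these 2 groups is thus what selected the genes, and it is given below as a description without a test. All 7 genes passed the expression filter of each comparison, but *Kifap3* did so only through its CD4cre libraries, where it is high. These libraries entered the fit of CD4IKK1Δ with CD4NIKΔ as well.

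Bulk RNA sequencing was available for 11 mice on day 2 after IRI, with 1 library per mouse. Adult male mice on the C57BL/6 background were used, and the CD4cre group (3 libraries, labelled CD4creControl and wild type) carried a Cre recombinase driven by the CD4 promoter. The CD4IKK1Δ group (5 libraries, labelled CD4IKK1 and IKK1 knockout) carried this Cre together with a floxed *Chuk* gene, which encodes IKK1, and the CD4NIKΔ group (3 libraries, labelled CD4NIK and NIK knockout) carried it with a floxed *Map3k14* gene, which encodes NIK. All 3 groups underwent IRI, and no library of sham-operated mice was analysed here. The Cre acts in all cells that have ever expressed CD4, which includes the CD8+ T cells, since both lineages pass through a stage with CD4 and CD8 in the thymus. The cells were enriched with a bead kit and sorted by FACS, and the extracted RNA went through SMARTer amplification.

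In the noncanonical NFκB pathway, NIK phosphorylates IKK1, which leads to processing of the precursor p100 and to nuclear entry of RelB dimers. The genes described here belong to no common pathway. *Arl4d* is an ARF-like small GTPase of the plasma membrane, *Tob2* an antiproliferative protein that recruits the CCR4-NOT deadenylase to mRNAs, *Dedd2* a nuclear protein with a death effector domain, and *Serpinb6b* an intracellular inhibitor of serine proteases. *Ddx5* (p68) is a DEAD-box RNA helicase that acts in splicing, microRNA processing and transcription, and it is known as a partner of RORγt in Th17 cells. *Kifap3* is the non-motor subunit of the kinesin-2 motor, and *Hdhd5* is a predicted hydrolase of the haloacid dehalogenase type.

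Library totals ran from 15751632 to 25737046 estimated counts, which puts 3 counts between 0.115 and 0.212 CPM (counts scaled to a common library size with edgeR's TMM factors). Such limits cover counting error only, because reads amplified by PCR and not marked by molecular identifiers need not each stem from a molecule of their own. Neither targeted gene separated its own knockout group from CD4cre by its total level. *Chuk* ran from 15.3 to 26.5 CPM in CD4IKK1Δ and from 16.3 to 33.3 CPM in CD4cre, and *Map3k14* ran from 12.8 to 30.8 CPM in CD4NIKΔ and from 14.8 to 19.6 CPM in CD4cre. In CD4IKK1Δ, *Map3k14* ran from 1.88 to 9.25 CPM, under every library of both other groups. These values pool all transcripts of a gene, so that they say nothing about the deleted exons. The summed level of 15 pan T cell markers ran from 1455 to 2732 CPM in CD4cre, from 16.1 to 1351 CPM in CD4IKK1Δ and from 7855 to 11612 CPM in CD4NIKΔ. Among the libraries labelled CD4IKK1, replicates 1 and 2 stood apart, with 1 and 228 counts of *Trac* (the constant region of the T cell receptor alpha chain) against 1347 to 2408 counts in the other 3. The sum of 6 neural markers ran from 1273 to 1647 CPM in CD4cre, from 1540 to 1957 CPM in CD4IKK1Δ and from 419 to 958 CPM in CD4NIKΔ, and that of 15 myeloid markers from 452 to 1869, from 104 to 261 and from 765 to 969 CPM. Erythroid markers (4 genes) summed to between 526 and 8156 CPM over all libraries, and B cell, NK and CD8 T cell, kidney tubule and endothelial markers to at most 90.6 CPM. In bulk samples, fewer T cells and less of a transcript per T cell cannot be told apart, and the part of these differences in the results below was not tested.

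The genes lie on 6 chromosomes and are all protein-coding. On GRCm39, *Arl4d* lies at chr11:101556367-101558658 and *Kifap3* at chr1:163607152-163747943, both on the plus strand. *Tob2* lies at chr15:81730803-81744217, *Hdhd5* at chr6:120485746-120508481, *Dedd2* at chr7:24899340-24920162 and *Ddx5* at chr11:106671180-106680024, all on the minus strand. *Serpinb6b* lies at chr13:33073279-33163050 on the plus strand, where its exons overlap those of *Serpinb1c* on the other strand, and those of *Ddx5* overlap *Cep95*. Whether strand was used in counting is not given in the sources used here, so that reads of such neighbours may not be separated. *Serpinb6b* also has close paralogues in its cluster, among which reads can be divided, and its level is uncertain to that extent. kallisto divides reads between transcripts, which leaves values that are not whole. Values above 0 were exactly whole (with no tolerance) in 11 of 11 libraries for *Arl4d*, in 3 for *Serpinb6b*, in 1 for *Hdhd5* and in 0 for *Tob2*, *Dedd2* and *Ddx5*, and in 0 of the 4 libraries with *Kifap3* above 0.

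The promoters of the 7 genes were searched for letters bound by transcription factors, among them NFκB and AP-1. That the genes were lower together is how they were chosen and gives no ground for a shared motif. The windows run from 250 bases before to 50 bases after each start (RefSeq, GRCm38.p6), and all 7 genes had at least 1, with 9 windows in all because *Ddx5* had 3. The motif of NFκB dimers (kappaB, both strands) was found in 0 of the 7 genes and in 4.51% of 32851 mouse promoter windows of the same length. The AP-1 motif TGANTCA was found in 0 of 7 genes (7.81% of all windows), as was the SRF CArG box (1.63%). The core TGACG of the cyclic AMP response element (CRE) was found on either strand in 3 genes, *Arl4d*, *Dedd2* and *Kifap3*, and in 20.8% of all windows. The complete CRE, TGACGTCA, which holds this core on both strands, was found in *Arl4d*, where it begins 26 bases before the start, and in 1.79% of all windows. The E-box CACGTG was found in 1 window of *Ddx5* (7.15% of all windows), and the GC box GGGCGG in 6 genes, all but *Arl4d* (35.7% of all windows). The 250 bases before the start of the 3 genes with a CRE core are shown because they have this core in common, with the core (or the complete CRE) in capitals. They match GRCm39 at chr11:101556117-101556366 (plus strand), chr7:24919285-24919534 (minus strand) and chr1:163606902-163607151 (plus strand).
Arl4d: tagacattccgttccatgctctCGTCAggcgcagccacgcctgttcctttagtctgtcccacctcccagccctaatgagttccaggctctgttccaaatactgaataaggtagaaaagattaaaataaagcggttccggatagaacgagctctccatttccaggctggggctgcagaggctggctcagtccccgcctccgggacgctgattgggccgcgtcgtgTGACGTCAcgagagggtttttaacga
Dedd2: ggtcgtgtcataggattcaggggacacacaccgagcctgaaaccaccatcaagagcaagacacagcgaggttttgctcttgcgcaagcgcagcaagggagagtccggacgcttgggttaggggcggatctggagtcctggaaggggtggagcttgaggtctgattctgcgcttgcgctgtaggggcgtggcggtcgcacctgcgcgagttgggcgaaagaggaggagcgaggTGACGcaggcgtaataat
Kifap3: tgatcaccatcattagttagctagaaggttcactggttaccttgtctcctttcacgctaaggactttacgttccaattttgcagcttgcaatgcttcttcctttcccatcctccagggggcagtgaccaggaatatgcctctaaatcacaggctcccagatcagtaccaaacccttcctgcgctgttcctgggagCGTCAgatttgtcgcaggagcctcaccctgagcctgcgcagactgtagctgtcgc
The core begins 18 bases before the start in *Dedd2* and 55 bases before the start in *Kifap3*, which has another after its start. A match of letters is a description and does not show that a factor binds there.

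The level of each gene across the libraries is given in the order of replicates 1 to 3 of CD4cre, 1 to 5 of CD4IKK1Δ and 1 to 3 of CD4NIKΔ. *Tob2* stood at 115, 105 and 100.1 CPM in CD4cre, at 31.1, 43.6, 52.8, 51.4 and 44.9 CPM in CD4IKK1Δ and at 117, 287 and 284 CPM in CD4NIKΔ. *Ddx5* stood at 109, 123 and 89.0 CPM, at 37.3, 42.3, 49.1, 45.5 and 62.5 CPM, and at 142, 261 and 296 CPM. *Dedd2* stood at 120.1, 99.2 and 98.7 CPM, at 37.1, 42.0, 44.9, 53.4 and 58.4 CPM, and at 122, 169 and 171 CPM. In these 3 genes the groups did not overlap at all, with CD4IKK1Δ lowest and CD4NIKΔ highest, and CD4NIKΔ replicate 1 was the lowest library of its group in each. *Hdhd5* had 87.7, 56.0 and 39.1 CPM in CD4cre, 14.5, 14.2, 12.0, 21.0 and 16.9 CPM in CD4IKK1Δ and 102, 108 and 99.2 CPM in CD4NIKΔ. Here too the 3 groups were fully separate, and CD4NIKΔ had the narrower spread (103 ± 4.46 CPM (SD, n = 3) against 60.96 ± 24.7 CPM (SD, n = 3) in CD4cre). *Arl4d* had 119.9, 97.6 and 64.4 CPM in CD4cre, 13.1, 23.3, 21.9, 25.7 and 17.4 CPM in CD4IKK1Δ and 46.3, 131 and 204 CPM in CD4NIKΔ. The CD4NIKΔ libraries of *Arl4d* therefore lay on either side of the CD4cre range, while the CD4IKK1Δ libraries lay under both groups.

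*Serpinb6b* and *Kifap3* were near or at the limit of detection in CD4IKK1Δ. *Serpinb6b* had 50.05, 28.3 and 22.4 CPM in CD4cre, 0.065, 1.05, 1.92, 0.20 and 0.95 CPM in CD4IKK1Δ and 109.8, 52.2 and 63.5 CPM in CD4NIKΔ. The CD4IKK1Δ values correspond to 1, 20, 34, 4 and 21 counts, against 447 to 1301 counts in CD4cre and 899 to 1988 counts in CD4NIKΔ, and no groups overlapped. *Kifap3* had 44, 126 and 253 counts in CD4cre (1.69, 6.13 and 12.7 CPM), 0 counts in all 5 CD4IKK1Δ libraries, and 0, 0 and 30 counts in CD4NIKΔ (2.12 CPM in replicate 3). A count of 0 allows up to 3 counts, between 0.135 and 0.194 CPM in the CD4IKK1Δ libraries. *Kifap3* was the 1 gene of the 7 with CD4NIKΔ libraries at 0, and the 1 gene whose CD4NIKΔ mean lay under the CD4cre mean.

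**Figure D1:**
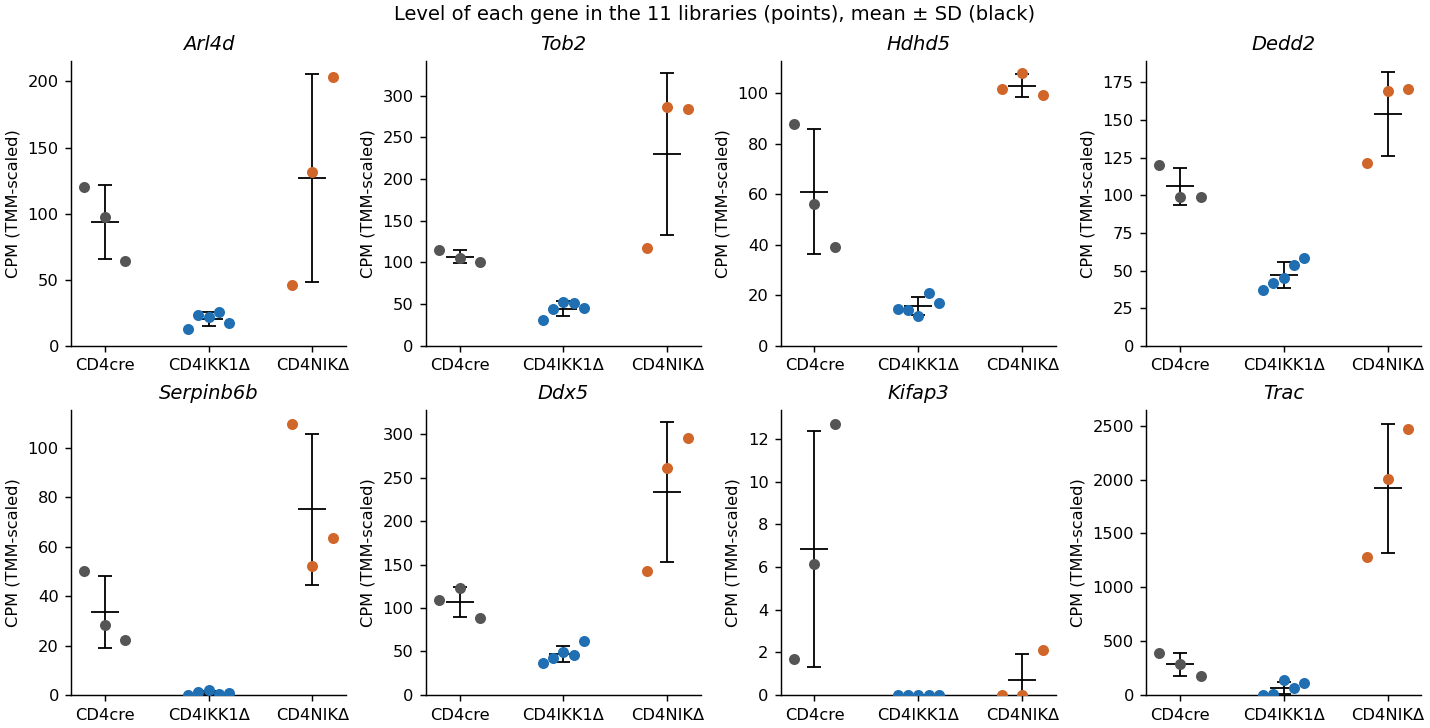
Level of the 7 genes and of *Trac* in CPM (y axes, linear and starting at 0, with a scale of their own) in each library (points) of the CD4cre (3), CD4IKK1Δ (5) and CD4NIKΔ (3) groups, with the mean ± SD in black. The CD4IKK1Δ points lie under all CD4cre points in each of the 7 genes, which is how these were chosen, and *Kifap3* is at 0 in all 5 of them.

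The contrast that chose the genes separated CD4IKK1Δ from CD4cre in all 7 genes, and 8.44% of the 15653 genes that passed the filter (1321) had every CD4IKK1Δ library under every CD4cre library. The mean level in CD4cre was 4.64 times that of CD4IKK1Δ for *Arl4d* (93.96 ± 27.9 CPM (SD, n = 3) against 20.3 ± 5.00 CPM (SD, n = 5)), 3.87 times for *Hdhd5*, 2.38 times for *Tob2*, 2.26 times for *Ddx5* and 2.25 times for *Dedd2*. For *Serpinb6b* the ratio was 40.2 (33.6 ± 14.5 against 0.837 ± 0.749 CPM), and for *Kifap3* the CD4cre mean of 6.84 ± 5.53 CPM was at least 42.5-fold higher, counted against a floor of 3 counts in each CD4IKK1Δ library. Without CD4cre replicate 3, the library with the most *Kifap3*, this bound was 24.3-fold. The gap between the nearest libraries was narrower than the means. The lowest CD4cre library exceeded the highest CD4IKK1Δ library by a factor of 11.7 for *Serpinb6b*, 2.51 for *Arl4d*, 1.90 for *Tob2*, 1.86 for *Hdhd5*, 1.69 for *Dedd2* and 1.43 for *Ddx5*.

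The small folds of *Tob2*, *Dedd2* and *Ddx5* went with a small spread. Their pooled SD within the groups was 0.26, 0.23 and 0.26 on the log2 CPM scale, against 0.41 for *Arl4d*, 0.42 for *Hdhd5*, 0.83 for *Kifap3* and 1.26 for *Serpinb6b*. Ranked by the difference of the group means over this SD, the 7 genes fell between place 12 (*Kifap3*) and place 49 (*Serpinb6b*) of the 1321 genes without overlap, so that they are not the 7 most separate genes. *Ier5* and *Slc35c1* ranked just after *Serpinb6b*, with a difference over SD of 4.41 and 4.36 against 4.42. The 3 genes ranked first, *Arfgef2*, *Pilrb1* and *Fam71b*, had no counts in CD4IKK1Δ and their lowest CD4cre library at 0.730, 1.00 and 1.25 CPM. *Tcirg1* and *Tbc1d4* lay just outside, with the highest CD4IKK1Δ library at 9.90 and 6.08 CPM and the lowest CD4cre library at 9.89 and 6.07 CPM. Over all genes, edgeR called 0 of 15653 genes between these groups at an adjusted p (FDR) under 0.05, that is 0%, with 2592 genes at an unadjusted p under 0.05, and DESeq2 called 985 genes.

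**Figure D2:**
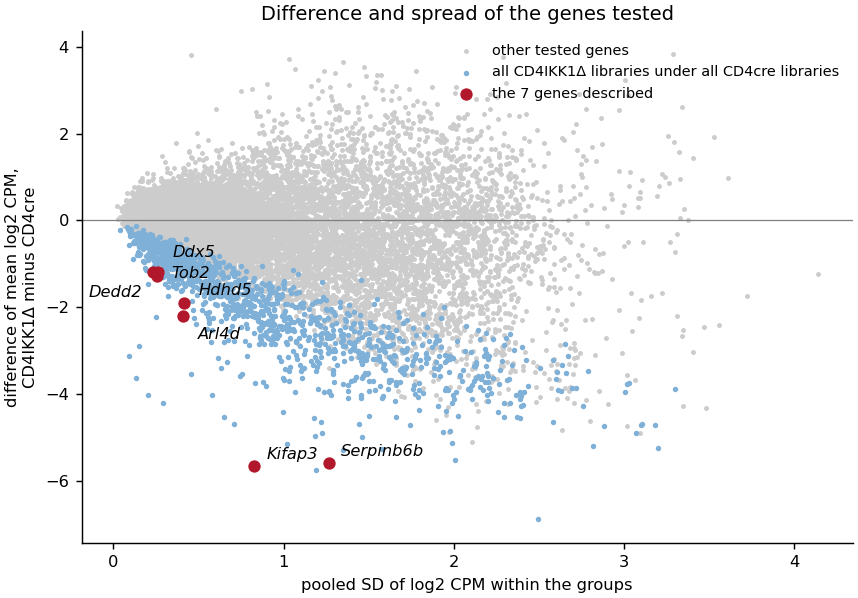
Difference of the mean log2 CPM between CD4IKK1Δ and CD4cre (y axis, below 0 is lower in CD4IKK1Δ) against the pooled SD of log2 CPM within the groups (x axis) for the 15653 genes that passed the filter, with the 1321 genes without overlap in blue and the 7 genes in red. *Tob2*, *Dedd2* and *Ddx5* sit at an SD between 0.23 and 0.26 with differences of -1.27, -1.18 and -1.18, and *Serpinb6b* and *Kifap3* sit at -5.59 and -5.67 with an SD of 1.26 and 0.83.

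The CD4NIKΔ libraries took no part in choosing the genes, whereas the CD4cre libraries did. A small spread in CD4cre, which the choice favoured, makes a low FDR and a gap to CD4NIKΔ more likely. Neither the FDR values nor the counts of the 7 genes below are therefore independent of the choice. Compared with CD4cre, *Ddx5* and *Tob2* were higher in CD4NIKΔ, and the other 5 genes did not pass the test. edgeR's quasi-likelihood F test with Benjamini-Hochberg adjustment over 15209 genes called 2 of the 7 genes higher and 0 lower, beside 12.1% of all genes higher (1843) and 8.97% lower (1365). This split was 1647 to 2302 with upper-quartile factors and 1603 to 1849 with library size alone, with 1 of the 7 genes (*Ddx5*) then called. *Ddx5* was 2.15-fold higher (log2 fold change 1.11, standard error 0.28, edgeR FDR 0.0286), and *Tob2* was 2.12-fold higher (log2 fold change 1.08, standard error 0.32, edgeR FDR 0.0433), each in 3 of 3 CD4NIKΔ libraries. The log2 fold change was 1.16 for *Serpinb6b* (standard error 0.39, edgeR FDR 0.0635), 0.74 for *Hdhd5* (standard error 0.29, edgeR FDR 0.0959) and, for *Dedd2*, 0.52 (standard error 0.20, edgeR FDR 0.0926). In these 3 genes every CD4NIKΔ library also lay above every CD4cre library, which makes 5 of 7 genes beside 22.9% of all genes tested. *Arl4d* stood at 0.42 on this scale (standard error 0.47, edgeR FDR 0.553) and *Kifap3* at -3.33 (standard error 1.61, edgeR FDR 0.170). *Kifap3* passed the filter here only through CD4cre, with 0, 0 and 30 counts in CD4NIKΔ, so that nothing is read from its test. Its value ran from -10.2 to -2.48 in the fits that left out a library. It was called only without CD4NIKΔ replicate 3, the library that holds its 30 counts. With DESeq2, *Serpinb6b* was called as well (adjusted p 0.0146).

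The calls of *Tob2* and *Ddx5* held in 1 of 6 fits that left out a library, the fit without CD4NIKΔ replicate 1, and were lost without any of CD4cre replicates 1, 2 and 3 or CD4NIKΔ replicates 2 and 3 (edgeR FDR from 0.0606 to 0.146). With scaling to pan T cell counts, an alternative added after seeing the data, the log2 fold changes of all 7 genes were negative (from -0.93 to -6.02) while the median of all genes moved from -0.02 to -2.28, so that all but *Kifap3* lay above that median under both scalings.

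The genes had been chosen for a low level and a small spread in the CD4IKK1Δ libraries, so that neither their distance to CD4NIKΔ nor the FDR of this distance is independent of the choice. Compared with CD4NIKΔ, the 6 genes other than *Kifap3* were lower in CD4IKK1Δ, beside 22% of the 16546 genes tested lower (3648) and 20.2% higher (3339), or 3004 lower and 4114 higher with upper-quartile factors. *Hdhd5* was 6.53-fold lower (log2 fold change -2.71, standard error 0.25, edgeR FDR 3.21e-05), *Arl4d* 6.26-fold lower (-2.65, standard error 0.39, edgeR FDR 0.000295) and *Tob2* 5.12-fold lower (-2.36, standard error 0.26, edgeR FDR 8.04e-05). *Ddx5* was 4.93-fold lower (-2.30, standard error 0.23, edgeR FDR 4.96e-05), and *Dedd2* 3.26-fold lower (-1.71, standard error 0.18, edgeR FDR 6.14e-05). *Serpinb6b* had the larger difference, with 75.2 ± 30.5 CPM (SD, n = 3) in CD4NIKΔ against 0.837 ± 0.749 CPM (SD, n = 5) or -6.47 on the log2 scale (standard error 0.71, edgeR FDR 9.85e-05). In these 6 genes all 5 CD4IKK1Δ libraries lay under all 3 CD4NIKΔ libraries, beside 24.4% of all genes tested. *Kifap3* had an edgeR FDR of 0.0370, which is not counted here. It entered the test only through CD4cre, where it is high, and was filtered out when the fit held CD4IKK1Δ and CD4NIKΔ alone. Its counts in this comparison are the 30 of CD4NIKΔ replicate 3, and no fold is given because its CD4IKK1Δ libraries are all at 0.

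**Figure D3:**
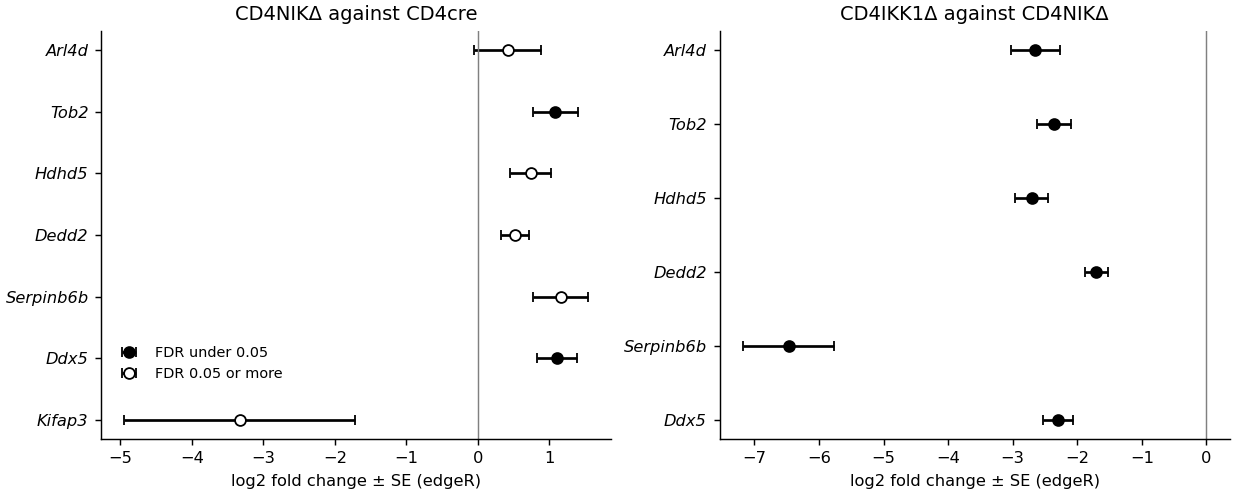
Log2 fold change of the genes (points) ± standard error (bars) from edgeR, for CD4NIKΔ against CD4cre (left) and CD4IKK1Δ against CD4NIKΔ (right), with x axes of their own and filled points for an FDR under 0.05. On the left 2 points (*Tob2* and *Ddx5*) are filled, at 1.08 and 1.11, and on the right, where *Kifap3* is left out, all 6 are filled and negative, while scaling to pan T cell counts turns 6 of the left points negative and 5 of the right points positive.

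The 6 genes other than *Kifap3* were called in 8 of 8 fits that left out a library and also without CD4IKK1Δ replicates 1 and 2 together (log2 fold changes from -1.55 to -6.21). These fits still rest on CD4IKK1Δ libraries that chose the genes for a low level and a small spread. That the calls held is therefore no independent support. Scaled to the pan T cell counts, 5 genes were higher in CD4IKK1Δ (log2 fold changes from 4.16 to 5.20), but the median of all genes was then 7.06, above all 7 genes. *Serpinb6b* moved from -6.47 to -1.52 with this scaling and was no longer called (edgeR FDR 0.371), nor was *Kifap3* (edgeR FDR 0.145).

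Counts were also set relative to *Trac*, as counts of the gene per 1000 counts of *Trac* in the same library. CD4IKK1Δ replicate 1 was left out because its 1 count of *Trac* is under the floor of 3, which leaves 10 libraries. The libraries that chose the genes are the same, and *Trac* itself differs between them, so that these ratios carry no test. Relative to *Trac*, *Serpinb6b* lay under every CD4cre library in all 4 CD4IKK1Δ libraries and *Kifap3* in the 3 where its count of 0 can be placed, whereas the other 5 genes did not.

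*Serpinb6b* had 128, 100.1 and 127 counts per 1000 *Trac* counts in CD4cre, 87.7, 14.1, 2.97 and 8.79 in CD4IKK1Δ replicates 2 to 5 and 85.6, 26.05 and 25.7 in CD4NIKΔ. All 4 CD4IKK1Δ libraries and all 3 CD4NIKΔ libraries thus lay under the lowest CD4cre library. *Kifap3* had 4.32, 21.7 and 72.0 in CD4cre, 0 in all 4 CD4IKK1Δ libraries and 0, 0 and 0.857 in CD4NIKΔ. The 3 counts that a 0 allows come to 13.2 per 1000 *Trac* counts in CD4IKK1Δ replicate 2, above the lowest CD4cre library, and to between 1.25 and 2.23 in replicates 3 to 5, under all of them. *Ddx5* had 279, 434 and 505 counts per 1000 *Trac* counts in CD4cre, 3539, 360.5, 679 and 580.0 in CD4IKK1Δ and 111, 130.3 and 119.7 in CD4NIKΔ, so that 3 of 4 CD4IKK1Δ libraries lay above all CD4cre libraries and 0 under them. *Tob2* had 294, 370.4 and 568 in CD4cre, 3654, 387, 768 and 417 in CD4IKK1Δ and 91.5, 143 and 115 in CD4NIKΔ, and *Dedd2* had 306, 350.3 and 559.6, then 3518, 329, 797 and 542, then 94.8, 84.4 and 69.1. Neither of them had a CD4IKK1Δ library under the CD4cre range, and each had 2 of 4 above it. *Arl4d* (306, 345 and 365 in CD4cre, 1947, 161, 383 and 161 in CD4IKK1Δ) and *Hdhd5* (224, 198 and 222 in CD4cre, 1193, 88.0, 314 and 157 in CD4IKK1Δ) each had 2 of 4 CD4IKK1Δ libraries above and 2 under the CD4cre range.

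In medians, the CD4IKK1Δ ratio over the CD4cre ratio on the log2 scale was 0.94 for *Dedd2*, 0.68 for *Tob2*, 0.54 for *Ddx5*, 0.09 for *Hdhd5*, -0.34 for *Arl4d* and -3.47 for *Serpinb6b*. Without CD4IKK1Δ replicate 2, the library with 228 *Trac* counts, these values were 0.63, 0.17, 0.42, -0.50, -1.10 and -3.85, so that the sign turned for *Hdhd5* and the sign of the other 5 genes held. The sign of *Arl4d* turned, however, without CD4IKK1Δ replicate 3 and without replicate 5 (0.15 each time). In CD4NIKΔ, where *Trac* was at 1283 to 2473 CPM against 176 to 392 CPM in CD4cre, all 7 genes lay under every CD4cre library relative to *Trac* in 3 of 3 libraries, with log2 ratios of the medians from -1.69 for *Tob2* to -2.40 for *Arl4d* among the 6 genes other than *Kifap3*. The share of all genes doing so was not computed. With scaling to pan T cell counts, 10885 of 15209 genes were called lower in CD4NIKΔ (median -2.28). A shift of this kind is thus not particular to the 7 genes.

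**Figure D4:**
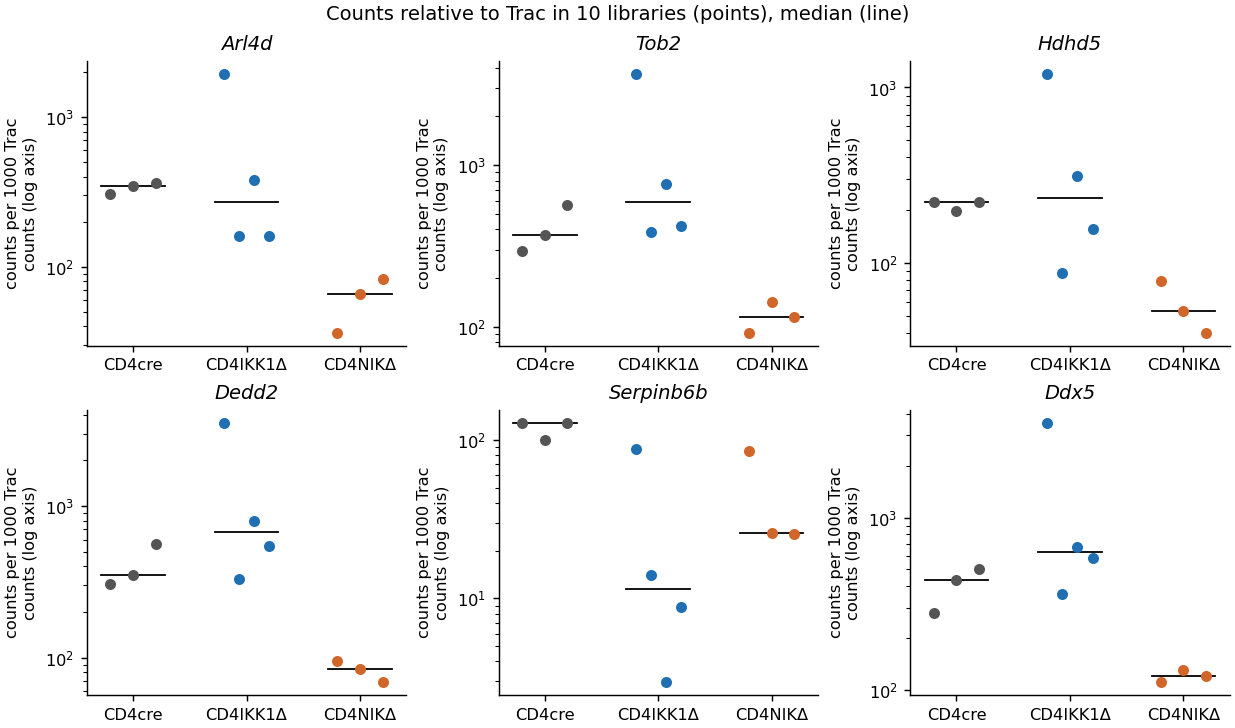
Counts of 6 genes per 1000 *Trac* counts (y axes, log scale, 1 axis per gene) in 10 libraries (points) with the group median (line), *Kifap3* being left out because of its counts of 0. The upper CD4IKK1Δ point in each panel is replicate 2, and the CD4NIKΔ points lie under all CD4cre points in each gene.

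The genes that followed each of the 7 most closely over the 11 libraries were searched among 16545 genes, by the root mean square (RMS) difference of log2 CPM after centring each gene on its mean. *Tob2* and *Ddx5* were each other's closest gene, at an RMS difference of 0.21, which is small against the range of 3.20 and 2.98 that they covered. *Dedd2* was closest to *Zc3h11a* (0.19) and *Nr3c1*, the glucocorticoid receptor (0.20), and next among the 7 genes to *Ddx5* (0.31). *Hdhd5* was closest to *Rplp0*, a protein of the ribosomal stalk (0.29), and to the DNA glycosylase *Neil1* (0.30). *Ddx5* was followed by *Tmem179b* (0.22), and *Tob2* by the ferritin light chain *Ftl1* (0.26). *Arl4d* was closest to *Traj24*, a joining segment of the T cell receptor alpha locus (0.33), and *Hspa9* (0.42), both at means under 1 CPM in all groups. *Serpinb6b* had no neighbour closer than *Lrmp* (0.93) and *Serpina3f* (1.00), and *Kifap3* none closer than *Fam71b* (1.52) and *Wfdc15b* (1.56). These are descriptions over libraries that share their depth and T cell content. The choice of the genes on 8 of the 11 libraries also brings the 7 genes closer to each other, so that nothing is read from the closeness among them.

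The closest paralogues of the 7 genes did not share their pattern throughout. Families were taken from 9 lists written by hand without the 7 genes, and each comparison was fitted over all genes as above. All list medians kept their side of the median of all genes under the other scalings tried, but the sign itself turned for most lists under scaling to pan T cell counts, and for the ARF-like GTPases and the haloacid dehalogenase-type hydrolases also with upper-quartile factors or library size alone. Directions below are therefore to be read against the median of all genes. Between CD4IKK1Δ and CD4cre edgeR called 0 genes in all 9 lists, as in the table as a whole, and DESeq2 called 15. The counts below stand beside 22% of all genes lower and 20.2% higher in CD4IKK1Δ compared with CD4NIKΔ, and 12.1% higher and 8.97% lower in CD4NIKΔ compared with CD4cre. The pan T cell markers moved as well, with 14 of 15 lower (median -4.05) in the former comparison and 14 of 15 higher (median 2.11) in the latter, and their part in the values of the lists was not tested. The calls of CD4NIKΔ against CD4cre rest on single libraries, since the 36 genes of the lists called there became 13 and 9 without CD4cre replicates 2 and 3 and 15 and 7 without CD4NIKΔ replicates 2 and 3. For the RNA helicases, the relatives of *Ddx5*, 13 of 27 genes fell and 1 rose in CD4IKK1Δ compared with CD4NIKΔ (median log2 fold change -1.15, against 0.06 for all genes), and 8 fell and 2 rose with upper-quartile factors. Among those that fell were *Ddx10* (-1.79, edgeR FDR 9.50e-05), *Ddx41* (-1.43) and *Ddx21* (-1.78), helicases of ribosome synthesis or nucleic acid sensing. In CD4NIKΔ compared with CD4cre 7 rose and 1 fell (median 0.93 against -0.02 for all genes). *Ddx17*, the closest paralogue of *Ddx5*, was not among them, with -0.15 (edgeR FDR 0.637) in CD4NIKΔ and 0.38 (edgeR FDR 0.0668) in CD4IKK1Δ compared with CD4NIKΔ. It stood at 88.9 ± 9.85 CPM (SD, n = 3) in CD4cre, 105 ± 7.79 CPM (SD, n = 5) in CD4IKK1Δ and 80.95 ± 16.1 CPM (SD, n = 3) in CD4NIKΔ, whereas *Ddx5* stood at 107 ± 17.0, 47.3 ± 9.51 and 233 ± 80.6 CPM.

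Among the TOB/BTG proteins and the deadenylation machinery around *Tob2*, 10 of 19 genes fell and 0 rose in CD4IKK1Δ compared with CD4NIKΔ (median -0.71). The paralogue *Tob1* fell by 1.44 on the log2 scale (standard error 0.25, edgeR FDR 0.000635), and the antiproliferative genes *Btg2* and *Btg1* fell by 3.19 and 4.49. In CD4NIKΔ compared with CD4cre 5 genes rose and 0 fell (median 0.69), with *Btg1* at 2.08 and the CCR4-NOT subunit *Cnot2* at 1.20, while *Tob1* had 0.61 (edgeR FDR 0.183).

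For the death effector domain proteins around *Dedd2*, 2 of 5 genes fell and 1 rose in CD4IKK1Δ compared with CD4NIKΔ (median -1.37), and 2 rose and 0 fell in CD4NIKΔ compared with CD4cre (median 0.82), or 2 rose and 1 fell with upper-quartile factors. The initiator caspase *Casp8* and its regulator *Cflar* fell by 5.33 and 2.02 (edgeR FDR 0.00293 and 0.000127) and rose by 2.29 and 1.34, whereas *Pea15a* was 2.01 higher in CD4IKK1Δ (edgeR FDR 0.00734). *Dedd* had -0.87 (edgeR FDR 0.288) and -0.42 (edgeR FDR 0.590) in the same comparisons.

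For the clade B serpins around *Serpinb6b*, 6 of 11 genes passed the filter of the comparison of CD4IKK1Δ with CD4NIKΔ, of which 2 fell and 0 rose (median -1.30), and 2 of the 5 tested rose in CD4NIKΔ compared with CD4cre (median 0.43). Both times these were *Serpinb9*, an inhibitor of granzyme B, and *Serpinb1a*, an inhibitor of neutrophil serine proteases. *Serpinb9* fell by 4.76 and rose by 1.96 (edgeR FDR 0.00317 and 0.0245), and *Serpinb1a* fell by 4.30 and rose by 2.61 (edgeR FDR 0.000708 and 0.0320). *Serpinb6a*, the closest paralogue, had 3.64 ± 1.01 CPM (SD, n = 3) in CD4cre, 4.06 ± 1.71 CPM (SD, n = 5) in CD4IKK1Δ and 4.94 ± 0.310 CPM (SD, n = 3) in CD4NIKΔ and passed neither test (edgeR FDR 0.683 and 0.558). Granzymes are the proteases that such serpins meet in killer lymphocytes. Of the 6 granzyme and perforin genes 4 fell in CD4IKK1Δ compared with CD4NIKΔ (median -3.72), among them *Gzma* (-7.74) and *Gzmb* (-5.25), and 5 rose in CD4NIKΔ compared with CD4cre (median 2.72), among them *Gzmb* (2.75) and *Prf1*, the pore-forming perforin (1.85). The markers of NK and CD8 T cells moved beside them, with 2 of the 3 tested called lower in CD4IKK1Δ compared with CD4NIKΔ (median -3.99) and 0 of 3 called in CD4NIKΔ compared with CD4cre (median 1.25). Of the myeloid markers, 7 of the 10 tested were called lower in CD4IKK1Δ compared with CD4NIKΔ (median -1.94), and the part of such cells in the granzyme and serpin values was not tested.

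Of the 9 kinesin-2 and kinesin-1 genes around *Kifap3*, 6 rose and 0 fell in CD4IKK1Δ compared with CD4NIKΔ (median 1.33), and 4 fell and 0 rose in CD4NIKΔ compared with CD4cre (median -1.04). *Kif3a*, the motor subunit that *Kifap3* binds, stood at 254 ± 18.3 CPM (SD, n = 3) in CD4cre, 311 ± 13.5 CPM (SD, n = 5) in CD4IKK1Δ and 118 ± 46.2 CPM (SD, n = 3) in CD4NIKΔ (log2 fold change 1.39, edgeR FDR 0.000249, and -1.11, edgeR FDR 0.0288), and the partner *Kif3b* had 0.50 (edgeR FDR 0.0491) and -0.46 (edgeR FDR 0.229). *Kif5a* and *Klc1*, parts of the axonal transport motor, were 1.48 and 1.35 higher in CD4IKK1Δ. The neural markers moved with this list, with 5 of 6 called higher in CD4IKK1Δ compared with CD4NIKΔ and 4 of 5 called lower in CD4NIKΔ compared with CD4cre, and the part of such transcripts in the kinesin values was not tested.

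The ARF-like GTPases around *Arl4d* had 3 of 16 genes higher and 4 lower in CD4IKK1Δ compared with CD4NIKΔ (median -0.06), near the shares of all genes, or 5 higher and 3 lower with upper-quartile factors, and 0 higher and 3 lower in CD4NIKΔ compared with CD4cre (median 0.12). The paralogue *Arl4c* fell by 1.16 (edgeR FDR 0.000660), and *Arl4a* had -0.18 (edgeR FDR 0.208). The haloacid dehalogenase-type hydrolases around *Hdhd5* had 6 of 15 genes higher and 4 lower (median 0.54), and 3 higher and 2 lower in CD4NIKΔ compared with CD4cre (median 0.01), or 2 higher and 5 lower with upper-quartile factors. *Hdhd2* was 0.98 higher in CD4IKK1Δ compared with CD4NIKΔ (edgeR FDR 0.000751), opposite to *Hdhd5*.

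Immediate early genes, which stimulation or cell isolation can induce quickly, were listed as a further group. Of 14 such genes 10 fell and 0 rose in CD4IKK1Δ compared with CD4NIKΔ (median -3.23), among them *Dusp1* (-5.06) and *Jun* (-3.60), and 2 rose in CD4NIKΔ compared with CD4cre (*Zfp36* by 2.00 and *Egr2* by 1.66), or 1 with upper-quartile factors. Compared with CD4cre, 14 of 14 had a lower mean in CD4IKK1Δ (median -2.74, with 0 called by edgeR), beside 15 of 15 pan T cell markers (median -2.04, with 0 called by edgeR). The median of all genes in this comparison was 0.02. Of the markers of other cells, 3 of 3 NK and CD8 T cell (median -2.35), 9 of 10 myeloid (-2.29), 3 of 3 endothelial (-2.16), 6 of 6 kidney tubule (-2.04) and 4 of 4 erythroid markers (-1.40) were lower in mean. The neural markers were higher in 6 of 6 (median 0.28) and the B cell markers in 1 of 2 (median 0.87). With edgeR 0 of these markers were called, and their part in the values of the immediate early genes was not tested.

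**Figure D5:**
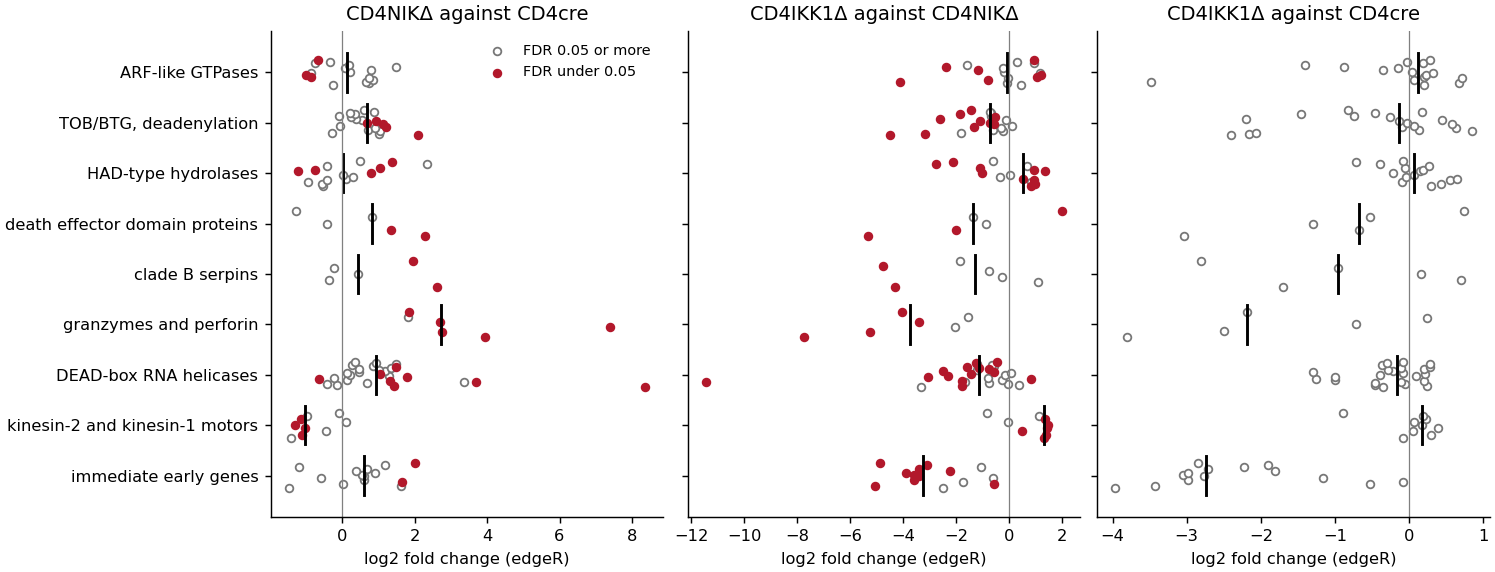
Log2 fold change (x axes, edgeR) of the genes of 9 lists (y axis, 1 point per gene, with a vertical bar at the list median) in the 3 comparisons, with filled points for an FDR under 0.05. The granzymes and the immediate early genes lie left of 0 in the middle panel (medians -3.72 and -3.23) and 7 of the 9 kinesins right of 0 (median 1.33), the former 2 lists turning positive when scaled to pan T cell counts, and no point is filled in the right panel.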

How the data were processed

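RNA sequencing of renal CD4+ T cells from 3 CD4cre, 5 CD4IKK1Δ and 3 CD4NIKΔ mice was used, with groups taken from the titles and genotypes given to the samples. After Trimmomatic and kallisto, the authors deposited estimated counts, 1 per library and gene symbol (35814 symbols), neither normalized nor filtered. The paper gives GRCm39 as the assembly and the submitters' processing notes give mm10, and the kallisto version and annotation are not given in the sources used here. kallisto divides reads among similar transcripts, which lowers the reliability of close paralogues. Among 55 pairs of libraries, 0 were identical.

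Values were rounded and filtered by edgeR's expression filter. After TMM scaling (factors from 0.8995 to 1.0493), edgeR 4.0.16 under R 4.3.3 fitted the quasi-likelihood model with robust dispersion, and p-values were adjusted by Benjamini-Hochberg over all genes tested, with a call at an FDR under 0.05. All 11 libraries entered the fit of CD4IKK1Δ with CD4NIKΔ, and the other comparisons used their own groups. These steps were tested on simulated data in which few genes changed, up and down alike. That test does not cover groups that differ in T cell content, as the groups do here. Log2 CPM have a prior count of 2. GENCODE M39 held 33508 (93.6%) of the symbols and gave coordinates. Alternatives were DESeq2 (1.42.0), other scalings and filters, a fit that is not robust, other libraries in the fit, a replicate block, a 2-fold threshold, other denominators than *Trac*, and leaving out each library. The 7 genes, the 9 lists of relatives and the 8 lists of markers were chosen with earlier results of these data known. Named were the 7 genes, *Chuk*, *Map3k14*, *Trac*, the closest paralogues, at most 4 called genes of smallest FDR per list of relatives and comparison, the 2 closest neighbours of each gene, and the genes ranked just after the 7. *Arfgef2*, *Pilrb1*, *Fam71b*, *Tcirg1* and *Tbc1d4* were named after their values were seen.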

Additional observations from a re-analysis of the deposited data

Results flagged for a closer look

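Relative to *Trac*, CD4IKK1Δ replicate 2 lay far above the other 3 CD4IKK1Δ libraries with a usable *Trac* count, with a gap to the nearest of them that took up most of the range of the group. Its value per 1000 *Trac* counts was 1947 for *Arl4d*, 3654 for *Tob2*, 3518 for *Dedd2*, 3539 for *Ddx5* and 87.7 for *Serpinb6b*. These 5 values share 1 denominator, the 228 *Trac* counts of this library, and 12 groups of values were examined. The threshold for such a gap is one that chance passes in about 1 in 20 groups.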

How the results depend on the processing

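For CD4NIKΔ against CD4cre, 3208 genes, 36 relatives and 2 of the 7 genes were called. DESeq2 called 4995 genes. Of the 7 genes, 1 was called with upper-quartile factors and 1 with library size alone. Scaled to pan T cell counts, 10988 genes, 80 relatives and 6 of the 7 genes (all but *Serpinb6b*) were called. The log2 fold changes were -1.88 (*Arl4d*), -1.25 (*Tob2*), -1.41 (*Hdhd5*), -1.76 (*Dedd2*), -0.93 (*Serpinb6b*) and -1.19 (*Ddx5*). *Kifap3* was among the genes called but passed the filter only through CD4cre. Leaving out 1 library gave 692 to 4245 genes, 7 to 44 relatives and 0 to 3 of the 7 genes, with *Arl4d* from -0.075 to 0.84. For CD4IKK1Δ against CD4NIKΔ, 6987 genes were called, and 14311 when scaled to pan T cell counts, with *Arl4d* at 4.16, *Tob2* at 4.46, *Hdhd5* at 4.34, *Dedd2* at 5.20 and *Ddx5* at 4.64. For CD4IKK1Δ against CD4cre, where edgeR called 0 genes, DESeq2 called 985 (15 relatives), a filter of 1 count in any library 60, a filter of 10 counts in every library 227 (2 relatives), all 11 libraries in the fit 132 (1 relative), RLE factors 1 and upper-quartile factors 1. Leaving out 1 library gave 0 to 25 called genes and 1455 to 2165 genes without overlap. The labels do not say whether the replicate numbers pair the samples. The deviations of libraries with the same number correlated between -0.09 and 0.08, which in groups this small cannot exclude a pairing. With the replicate block, 1187 genes, 11 relatives and 1 of the 7 genes (*Serpinb6b*) were called for CD4NIKΔ against CD4cre, and 3 genes for CD4IKK1Δ against CD4cre. Relative to *Trac*, the log2 ratio of *Arl4d* was 0.15 with *Trac*, *Trbc1* and *Trbc2* as the denominator and ran from -1.10 to 0.15 without 1 library, and that of *Hdhd5* ran from -0.50 to 0.50, with -0.50 without the 2 CD4IKK1Δ libraries of fewest *Trac* counts. The cause of these differences was not tested. The scaling to pan T cell counts, the fits without 2 libraries and the bound of *Kifap3* without a CD4cre library were chosen after seeing the data.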
